A study of Mus musculus with 12 samples.

Results

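Striatal D2 medium spiny neurons were followed here through 4126 nuclei of 184957 retained nuclei, or 2.23%, in single-nucleus RNA sequencing of the mouse left hippocampus. They were chosen on their own transcripts, counted as unique molecular identifiers (UMIs), so the values of the choosing genes are a description and carry no test. A nucleus had to hold 500 to 10000 detected genes, at least 1 UMI of Gad1 or Gad2, at least 1 of Rgs9, at least 3 of Pde10a, at least 1 of Drd2 or Adora2a, none of Drd1, none of Slc17a7 or Slc17a6, and fewer than 2 of Mobp. These nuclei are called D2 nuclei below, a name that stands for the gate. A matching gate with at least 1 Drd1 UMI and none of Drd2 or Adora2a held 3796 nuclei, called D1 nuclei. A further 158 nuclei had UMIs of both kinds, and 8199 that passed the remaining steps had neither.

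The libraries came from female 3xTg-AD mice and wild-type (WT) littermates, aged 6 or 12 months. This line carries human APP and tau transgenes with familial disease mutations, among other changes. There were 3 libraries per genotype and age, each made from 1 left hippocampus after flow sorting of nuclei away from debris. The design asks how the transcriptome differs between genotypes at each age and between ages.

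Medium spiny neurons are the GABAergic projection neurons of the striatum. The D2 kind sends the indirect pathway to the external globus pallidus, carries the dopamine receptor Drd2 and the adenosine receptor Adora2a, which act on cAMP in opposite directions, and makes the opioid precursor Penk. The D1 kind sends the direct pathway and makes Tac1 and Pdyn, and both kinds hold Pde10a, which degrades cyclic nucleotides, and Rgs9, which shortens G protein signals.

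Of the retained nuclei, 54265 had a Gad1 or Gad2 UMI and no Slc17a7 or Slc17a6, 16279 then passed the Mobp, Rgs9 and Pde10a steps, and 4284 of those had Drd2 or Adora2a. Total depth ran from 79177051 to 128323908 UMIs per library, and the D2 nuclei of a library summed to 484785 to 7365857 UMIs. Median depth of the D2 nuclei was 7196 to 12313.5 UMIs, against 4345 to 6698.5 over all retained nuclei. A doublet caller marked 9.72% of D2 nuclei and 6.79% of all retained nuclei. Any pair of libraries shared at most 1 barcode of a D2 nucleus.

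The label was checked on 12 medium spiny neuron identity genes that the gate did not use, among them the transcription factors Rarb, Foxp1, Bcl11b and Meis2 and the phosphatase inhibitor Ppp1r1b. Their summed level split the D2 nuclei at 30 UMIs per 10000, a value set after the data were seen, with 3507 nuclei above it (85.0%), 619 below and 108 within 5 of it. Above it, Penk reached 321 UMIs per 1000000 of the summed nuclei (CPM), against 26.9 CPM below it, 23.2 in D1 nuclei and 12.9 in other inhibitory nuclei. These other inhibitory nuclei passed the Gad, Slc17a and Mobp steps but had no Rgs9, Drd1, Drd2 or Adora2a UMI and fewer than 3 of Pde10a. They numbered 11208, at a median depth of 4427.5 to 5709.5 UMIs in a library. Since gate genes defined this set, the gap to it is a description. At least 1 Penk UMI was found in 79.7% of nuclei above the value, 13.7% below it, 10.7% of D1 nuclei and 1.47% of oligodendrocyte nuclei, whose median depth was 2377.5 to 3637.5 UMIs. Among nuclei with at least 3000 UMIs, each thinned to that number, these shares were 55.7%, 5.83%, 5.23% and 1.40%. The shallower nuclei left out were 51966 of the 184957, and 3365 of 7899 oligodendrocyte nuclei were kept. Nuclei at the lower edge of the gate, with exactly 3 Pde10a UMIs, numbered 111 and 43.2% of them lay above the identity value. The 117 nuclei just outside, with 2 Pde10a UMIs and every other step passed, held 37.6%.

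The data went against the label most in 2 libraries, though every library held 36 to 66 D2 nuclei below the identity value. In WT at 12 months, only 3 of 42 D2 nuclei of library 4 (7.14%) and 7 of 70 of library 12 (10.0%) lay above the identity value, against 46 of 87 (52.9%) in library 8. In WT at 6 months the share was 69.7%, 84.5% and 94.5% in libraries 3, 7 and 11. In 3xTg-AD it was 72.9%, 79.2% and 85.5% at 6 months in libraries 1, 5 and 9, and 92.3%, 93.9% and 73.6% at 12 months in libraries 2, 6 and 10. Every 12-month WT library therefore lay below all 9 others, and the members of libraries 4 and 12 are described as gated nuclei rather than as medium spiny neurons. Of D1 nuclei, 0 of 12, 49 of 53 and 3 of 21 lay above the value in 12-month WT libraries 4, 8 and 12. In every library except WT 4, a larger share of D1 than of D2 nuclei lay above it, so both gates differ in makeup.

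Penk, the enkephalin precursor and the marker outside the gate, showed the same gap. Its level in all D2 nuclei of a library was 156, 221 and 395 CPM in 6-month WT and 229, 204 and 253 CPM in 6-month 3xTg-AD, 316, 231 and 215 CPM in 12-month 3xTg-AD, and 16.5, 152 and 27.4 CPM in 12-month WT. Rarb, a retinoic acid receptor of striatal neurons, stood at 35.1 and 73.8 CPM in 12-month WT libraries 4 and 12 and at 557 to 1329 CPM in the other 10. Both genes were thus lowest in the same pair of libraries, and WT library 8 came next with the third lowest value of each. Among nuclei above the identity value alone, Penk in WT library 8 was 345 CPM, inside the range of 234 to 422 CPM of the other 9 libraries with enough such nuclei.

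**Figure D1:**
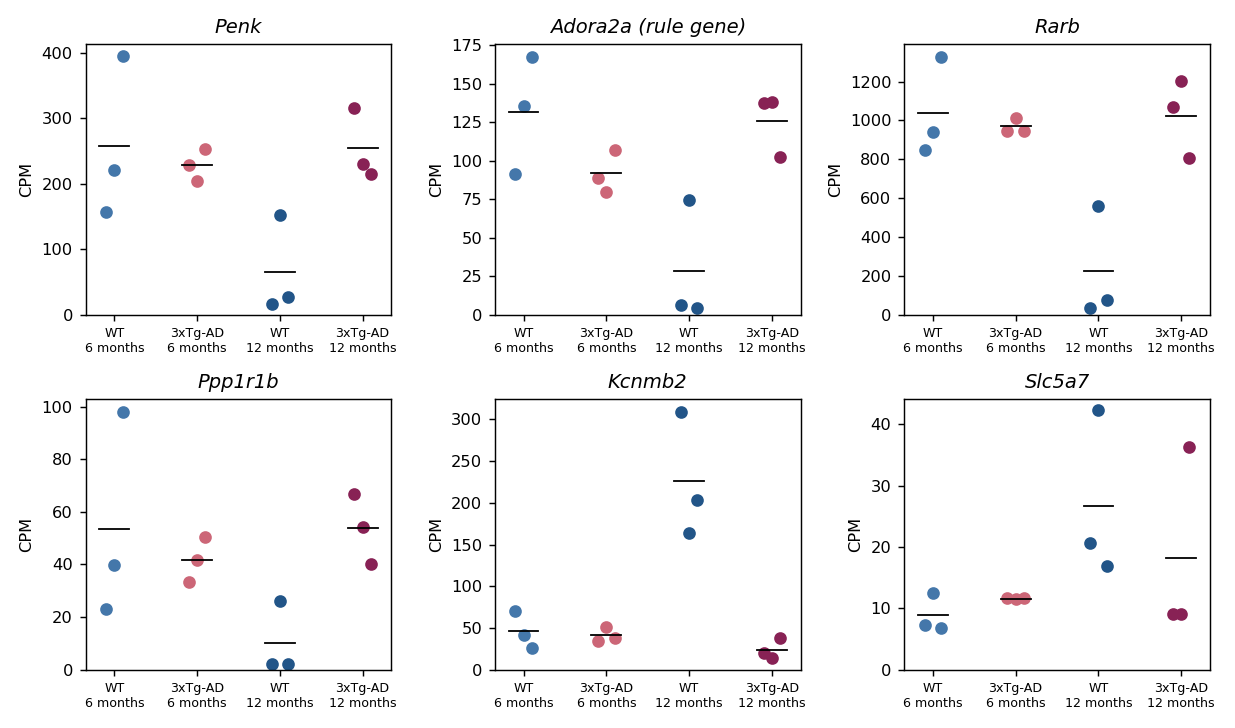
Levels (CPM, linear axis) of 6 genes in the D2 nuclei of each library, as points by genotype and age, with the group mean as a line. Penk and Rarb fall to 16.5 and 35.1 CPM in one 12-month WT library, while the calcium-activated potassium channel subunit Kcnmb2 reaches 309 CPM there.

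Among the 20 genes that most set nuclei above the identity value apart from other inhibitory nuclei of the 12 libraries were, besides Penk and Rarb, Sh3rf2 at 119 against 1.39 CPM, Gng7, the G protein subunit that couples dopamine and adenosine receptors to adenylyl cyclase, at 478 against 31.3 CPM, and Ppp1r1b at 70.1 against 2.69 CPM. Scn4b, a sodium channel beta subunit, had 68.6 against 3.12 CPM, the phosphodiesterase Pde7b 1594 against 204 CPM, and the actin regulator Phactr1 10346 against 1348 CPM. Several were as high in D1 nuclei. In the libraries other than WT 4 and 12, all D2 nuclei had 403 CPM of Gng7 against 393 in D1 nuclei. Pde7b had 1363 against 1289 CPM, Ppp1r1b 58.6 against 73.2 CPM and Rarb 1069 against 1348 CPM. Penk, at 271 against 23.2 CPM, was higher in D2 nuclei. The genes that set these nuclei apart were named after their values were seen, and the lead of Rarb and Ppp1r1b was fixed by the split, since both belong to the 12 identity genes. The other inhibitory nuclei were themselves chosen to lack gate genes of medium spiny neurons. The lead of further genes shared by such neurons is therefore a description too, and not a separate check of the label.

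The nuclei below the value carried another profile. Elavl2, a neuronal RNA-binding protein, was at 598 against 41.8 CPM above the value, the muscarinic receptor Chrm2 at 316 against 22.8 CPM, the kainate receptor subunit Grik1 at 493 against 39.4 CPM, and Adarb2, common in interneurons, at 1267 against 122 CPM. Slc5a7, the choline transporter of cholinergic neurons, had 53.7 against 1.03 CPM. At least 2 UMIs of Chat and Slc5a7 together were found in 40 of these 619 nuclei (6.46%) and in 5 of the 3507 above the value (0.143%). The low nuclei thus included some with cholinergic transcripts, and their levels are a description since the identity genes split them.

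Markers of 8 other cell classes or regions were measured, and their part in the results below was not tested. All 4 oligodendrocyte markers outside the gate were detected above the identity value and summed to 99.99 CPM there, against 1061 CPM over all retained nuclei. The 4 astrocyte markers summed to 200 against 1507 CPM, the 4 microglia markers to 16.7 against 51.9 CPM, the 4 forebrain excitatory markers to 5.82 against 76.8 CPM and the 6 interneuron markers to 36.3 against 38.8 CPM. The 4 central amygdala markers summed to 17.4 against 69.5 CPM. The 4 oligodendrocyte precursor markers summed to 989 against 1309 CPM and the 4 thalamus markers to 1902 against 2260 CPM, so these lists and the interneuron list were closest to their sums over all retained nuclei. Above the identity value in 10 libraries, the precursor list had 580 CPM of Lhfpl3, 380 of Tnr, 23.2 of Vcan and 3.44 of Pdgfra. The thalamus list had 1883 CPM of Rora, 14.3 of Tcf7l2, 5.603 of Prkcd and 1.43 of Calb2. Most of the interneuron list was Lamp5, at 27.5 CPM, while Chat had 1.80 CPM. Between genotypes at the same age, the sums over all D2 nuclei of a library overlapped for these 8 lists except for the forebrain excitatory markers, at 19.9 to 61.9 CPM in 12-month WT against 5.81 to 19.0 CPM in 12-month 3xTg-AD. Single markers called at 12 months are named with the other calls of that age.

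D2 nuclei made up a varying share of each library. In WT at 6 months they were 1.74%, 1.90% and 5.84% of retained nuclei in libraries 3, 7 and 11, and in 3xTg-AD 0.939%, 1.95% and 2.55% in libraries 1, 5 and 9. At 12 months they were 0.233%, 0.658% and 0.617% in WT libraries 4, 8 and 12, and 4.92%, 4.20% and 0.974% in 3xTg-AD libraries 2, 6 and 10. The 6-month groups overlapped, whereas at 12 months every 3xTg-AD library lay above every WT library.

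Means at 6 months were 1.81% ± 0.815 in 3xTg-AD and 3.16% ± 2.32 in WT (SD, n = 3 each), a difference of -1.35 percentage points (two-sided exact permutation test, p = 0.6). At 12 months they were 3.37% ± 2.10 and 0.502% ± 0.234, a difference of 2.86 points (p = 0.1, the smallest an exact permutation test of 3 against 3 can give). Neither share difference can pass 0.05 at this size. Counting only nuclei above the identity value gave a 12-month difference of 2.93 points, as a description. Without WT library 11 the 6-month difference was -0.00616 points, so its size rests on that library. A hippocampal dissection can hold different amounts of neighbouring striatum, and this cannot be told apart from a difference in these neurons within the striatum.

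**Figure D2:**
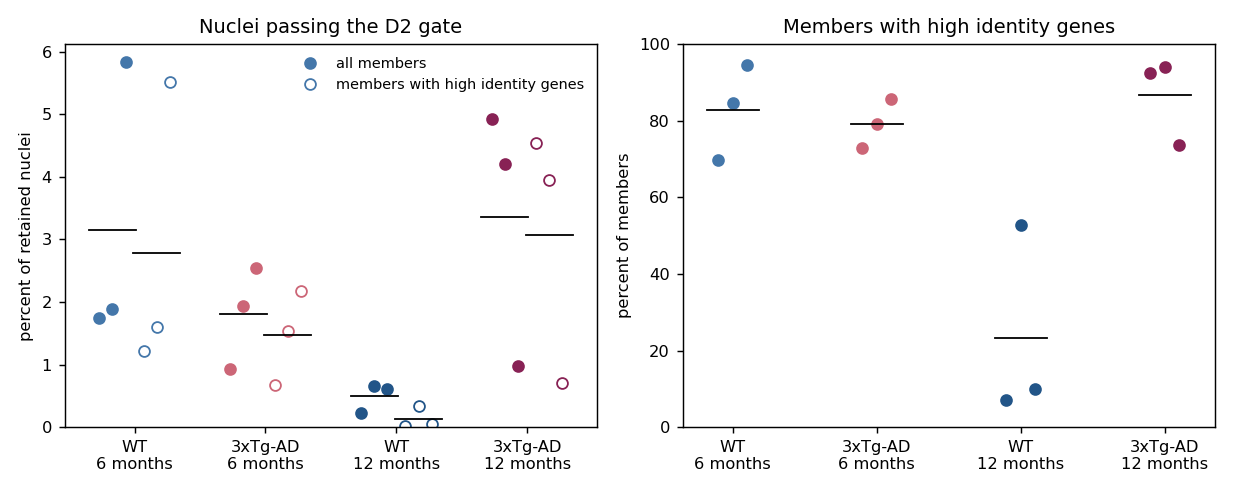
Left, D2 nuclei as a percent of retained nuclei by library (filled) and those above the identity value (open), with group means as lines; right, the percent of D2 nuclei above that value. The 12-month WT libraries sit between 0.233% and 0.658% on the left and between 7.14% and 52.9% on the right.

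The balance of both kinds compares nuclei of the same library. It counts nuclei by the gate genes Drd1, Drd2 and Adora2a, so its tests bear on gated counts and not on identity. D2 nuclei were 50.03% ± 2.33 of D1 and D2 nuclei in 6 3xTg-AD libraries and 63.5% ± 11.1 in 6 WT libraries (SD), a difference of -13.5 points (p = 0.01, exact permutation within ages, smallest possible 0.005). At 6 months alone the libraries held 53.6%, 54.8% and 55.9% in WT and 51.8%, 53.8% and 48.9% in 3xTg-AD, and they overlapped (difference -3.28, exact permutation p = 0.2). At 12 months alone, WT held 77.8%, 62.1% and 76.9% and 3xTg-AD 49.8%, 47.4% and 48.6% (difference -23.7, exact permutation p = 0.1, the smallest possible). Both WT libraries near 77% are those with few members above the identity value. Each pooled difference is the mean of the differences at both ages. Nuclei under 3000 UMIs were also left out, and the rest thinned to that number and gated again. This left 5 D2 and 2 D1 nuclei in WT library 4, and 5 and 3 in WT library 12. The pooled difference was then -5.52 points over all 12 libraries (exact permutation p = 0.015), and the set of nuclei changed along with the depth. Without WT libraries 4 and 12 it was -8.42 points (exact permutation p = 0.025, the smallest possible there), and the 12-month WT arm of that value is library 8 alone. Among nuclei above the identity value in the same 10 libraries it was -2.74 points (exact permutation p = 0.1375), so the difference did not pass the test there.

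Set against D1 nuclei, which the gate separated by Drd1, Drd2 and Adora2a, D2 nuclei differed in genes known to mark the direct and indirect pathways. These values are a description, with no test, as log2 ratios of CPM + 5 within each library. The counts over all genes cover those at 20 CPM or more in the higher kind, while genes of the fixed lists are given at any level. Over 12 libraries, 100 of 6708 genes were higher in D2 nuclei in every library (1.49%) and 102 lower (1.52%). In the 10 libraries other than WT 4 and 12, a choice made after the data were seen, these counts were 306 (4.58%) and 355 (5.31%) of 6686 genes, and the ratios below are medians over these 10 libraries. For the 54 genes of the lists or of the leading 10 on each side that kept 1 direction in them, pooled levels were also compared with both kinds kept to nuclei above the identity value, and 2 of them turned direction, Grik1 and Htr1b.

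Penk led the D2 side with a median log2 ratio of 3.31 (2.30 to 4.08 over libraries), at 271 against 23.2 CPM. Next came Grik3, a kainate receptor subunit, at 2.85 (242 against 25.3 CPM), the pyrimidine-degrading enzyme Upb1 at 2.61, the delta opioid receptor Oprd1 at 2.44 (46.5 against 3.88 CPM) and adenosine kinase, Adk, at 2.27 (403 against 79.8 CPM). The netrin receptor Unc5d followed at 1.95, the orphan receptor Gpr6 at 1.94, the receptor phosphatase Ptprm at 1.88, the transcription factor Sp9 at 1.87, and Nt5e, which makes adenosine outside cells, at 1.64. The D2 side thus held an enkephalin precursor with its receptor and genes that make and remove adenosine.

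All 7 indirect pathway genes of the list, Penk and Grik3 included, were higher in D2 nuclei in 10 of 10 libraries, with Gpr52 at 1.51 (15.3 against 1.87 CPM) and Plxdc1 at 1.01 (19.3 against 6.61 CPM). Of 9 direct pathway genes, 7 were lower or equal in every library: the transcription factor Ebf1 at -3.37 (15.4 against 199 CPM), the tachykinin precursor Tac1 at -3.20 (12.2 against 145 CPM), the dynorphin precursor Pdyn at -2.92 (1.54 against 42.1 CPM), Isl1 at -1.59, Slc35d3 at -1.57 (0.579 against 10.7 CPM), Sfxn1 at -0.85 and Chrm4 at -0.42 (0.138 against 2.01 CPM). Eya1 and Zfp521 were higher in D2 nuclei in 2 and 4 libraries. Foxp2, on the identity list, was lower throughout at -2.38 (218 against 1097 CPM), and Impg1, Cntnap3, Mdk, 6530403H02Rik and Asic4 completed the D1 side at -2.01 to -1.61.

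**Figure D3:**
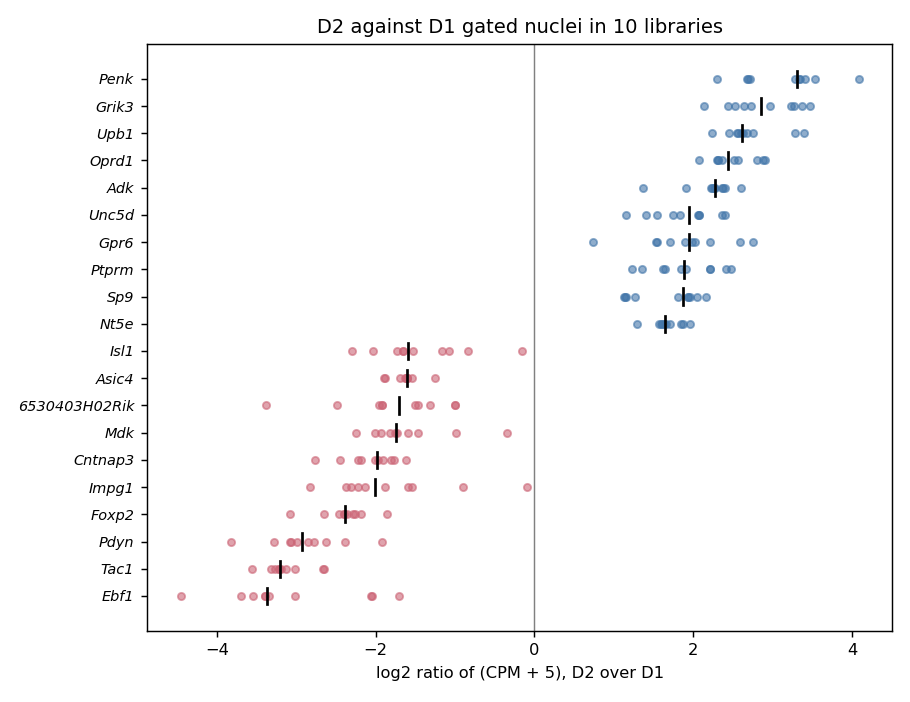
Log2 ratio of (CPM + 5) in D2 over D1 nuclei for the 10 leading genes of each side; points are 10 libraries and bars their median. Penk sits furthest right at a median of 3.31 and Ebf1 furthest left at -3.37. Only genes with every point on one side of 0 could be chosen.

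Receptors differed too. In the opioid list the kappa receptor Oprk1 was lower in D2 nuclei in every library (-0.71), while the mu receptor Oprm1 was level (-0.01). The muscarinic receptor Chrm3 was higher in 10 of 10 libraries (1.44), as was the serotonin receptor Htr2c (0.75), and the dopamine receptor Drd3 was lower in 9 of 10 (-1.42). Of 17 ionotropic glutamate receptor genes Grik1 (1.01) and Grik3 were higher and Grik2 lower (-0.38) in all 10 libraries. The Grik1 excess was not found with both kinds kept to nuclei above the identity value, at 39.3 CPM in D2 and 42.0 CPM in D1 nuclei, and the D2 nuclei below the value had 493 CPM. The AMPA receptor genes Gria1 to Gria4 had medians of -0.06 to 0.17.

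Of 11 immediate-early genes, which neuronal activity induces, 5 were lower in D2 nuclei in every library. Junb had a median of -1.43 (33.9 against 99.4 CPM), Egr1 -1.24 (32.1 against 84.4 CPM), Arc -1.21 (17.7 against 52.2 CPM), Egr3 -0.78 and Fos -0.68 (7.78 against 14.4 CPM). The other 6 did not keep 1 direction in all 10 libraries, with Nr4a1 at -0.06 and Homer1 at -0.24. Crym, Wfs1 and Dlk1, genes of ventromedial striatum, were also lower throughout, at -0.61, -0.76 and -0.57, whereas Calb1, the other gene of that list, had 0.03 and was higher in 6 of 10 libraries. The 22 genes of amyloid precursor processing and Alzheimer risk had medians from -0.42 for Lpl to 0.16 for Cacna1c. App had -0.10, Mapt 0.12 and Bace1 0.09, and no gene of that list kept 1 direction in all 10 libraries.

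D2 nuclei above the identity value still varied between libraries. The cannabinoid receptor Cnr1, highest in dorsolateral striatum, had 91.3 CPM in 6-month WT library 11 and 83.6 CPM in 12-month 3xTg-AD library 2, against 6.45 to 25.5 CPM in the other 8 libraries with enough such nuclei. Nnat, a striosome gene, ran the other way, at 141 CPM in both of these and 174 to 564 CPM elsewhere, highest in 12-month 3xTg-AD library 10. Libraries with a high Cnr1 level were of different genotype and age. Within libraries the variance of Penk counts was 2.68 times that of counting alone, with 4.41 for Nnat, 7.08 for Foxp2 and 2.63 for Cnr1. The median was 1.14 over genes at 20 CPM or more. Genes were not matched by level, with Penk at 322, Foxp2 at 240, Nnat at 203 and Cnr1 at 48.8 CPM, against a median of 52.3 CPM.

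Few genes differed between genotypes at 6 months. In edgeR's quasi-likelihood test on counts summed over the D2 nuclei of each library, 8 of 12121 genes (0.066%) were called, at a Benjamini-Hochberg value under 0.05 and a log2 fold change beyond 0.2 in size, with 1 higher and 7 lower in 3xTg-AD. No gene of the 26 lists of striatal, receptor, channel, disease and cell class genes was among them. The indirect pathway genes had a median log2 fold change of 0.06, the cAMP signalling genes -0.15 and all genes -0.0046.

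Gm17167, a non-coding transcript on chromosome 4 (GRCm38, chr4:42206998-42235313), was the clearest. It had 20.9, 20.5 and 20.2 CPM in 6-month WT and 0, 0 and 0.447 CPM in 3xTg-AD. At 12 months it had 16.5, 22.4 and 19.0 CPM in WT and 0.306, 0 and 0.558 CPM in 3xTg-AD. The groups were far apart at both ages, with 257 counts against 2 at 6 months, a ratio of 89.1 (95% counting interval 24.4 to 739; edgeR adjusted p = 0.000837). D1 nuclei (4.32 to 22.3 against 0 to 0.309 CPM) and all retained nuclei (13.7 to 24.8 against 0.133 to 0.206 CPM) showed it too. Gm17167 lies near Ccl27a, a gene with close copies in that region, and whether copies affect the Gm17167 count was not tested.

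Col5a2, a fibrillar collagen chain (chr1:45374321-45503282), differed in another way. Its level in D2 nuclei was 40.6, 39.8 and 52.0 CPM in 6-month WT and 0.728, 1.04 and 3.13 CPM in 3xTg-AD, a log2 fold change of -4.43 (SE 0.329, edgeR adjusted p = 0.000837). At 12 months it was 4.13, 7.46 and 16.9 CPM in WT and 1.68, 0.861 and 0.558 CPM in 3xTg-AD. The D2 level of 6-month WT thus stood above every other group, while over all retained nuclei all 12 libraries had 5.28 to 18.5 CPM. In D1 nuclei it was 8.39 to 26.3 CPM in WT and 0.463 to 1.63 CPM in 3xTg-AD, without overlap.

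The other 6-month calls were each lost under some of the alternatives, while Gm17167 and Col5a2 stayed called under all 14. Those 14 include at least 30 nuclei per library, which left out no library and so left the fit unchanged. Cfap54, a protein of motile cilia (chr10:92775619-93081618), had 122, 130 and 116 CPM in WT and 56.8, 52.1 and 44.7 CPM in 3xTg-AD (log2 fold change -1.26, edgeR adjusted p = 0.00878). Bet1, a vesicle fusion protein between endoplasmic reticulum and Golgi (chr6:4076899-4086972), had 35.9, 50.1 and 48.6 against 15.3, 16.3 and 13.4 CPM (-1.58, edgeR adjusted p = 0.0202). The antisense transcript Gm47578 (chr10:99719143-99891158) was the gene that rose, from 0.772, 0.379 and 0.543 CPM to 8.73, 7.64 and 5.81 CPM (3.61, edgeR adjusted p = 0.0202). Gm49980, with 85 counts in WT and 1 in 3xTg-AD, Vmn2r29 and AC149090.1 were the others that fell. Calls were lost in 3 of 14 alternatives for Cfap54, 4 of 14 for Bet1 and AC149090.1, 7 of 14 for Vmn2r29, 5 of 13 for Gm47578 and 6 of 13 for Gm49980. AC149090.1, on an unplaced scaffold, had 587 to 1052 CPM in WT and 121 to 187 CPM in 3xTg-AD at 6 months, yet 163 to 623 and 468 to 742 CPM at 12 months. Vomeronasal receptors such as Vmn2r29 and genes on unplaced scaffolds have near-identical copies, so their counts are uncertain.

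**Figure D4:**
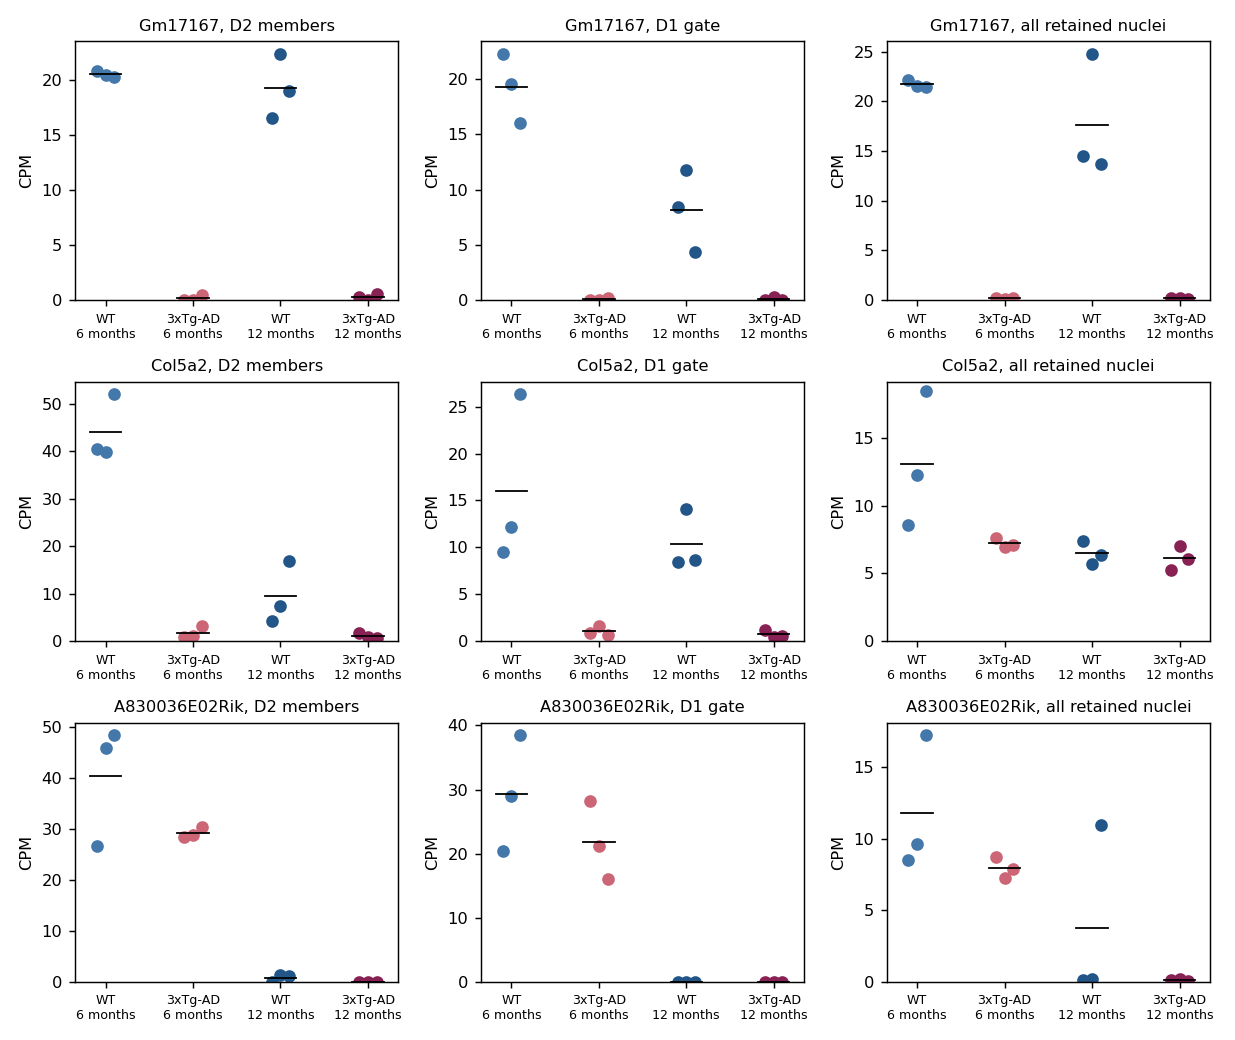
Levels (CPM) of Gm17167, Col5a2 and A830036E02Rik in D2 nuclei, D1 nuclei and all retained nuclei of each library, with group means as lines. Gm17167 is at 16.5 to 22.4 CPM in every WT library of D2 nuclei and at most 0.558 CPM in 3xTg-AD.

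Over both ages, with age in the model, 17 of 12874 genes (0.132%) were called, 4 higher and 13 lower in 3xTg-AD. Of these, 6 were also called at 6 months: Gm17167, Col5a2, Cfap54, Bet1, Gm47578 and Gm49980. These comparisons share the 6-month libraries, and again no gene of the 26 lists was called. Libraries WT 4 and 12 are in this fit. Without them 9 genes were called, 8 of them among the 17, a choice made after the data were seen.

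Sav1, an adaptor of the Hippo pathway (chr12:69965012-69987002), had 32.4, 21.6 and 23.5 CPM in 6-month WT and 47.4, 49.7 and 35.8 CPM in 12-month WT, against 15.3, 9.03 and 12.3 CPM and 10.9, 10.3 and 15.6 CPM in 3xTg-AD. No 3xTg-AD library reached a WT library, which the choice of named genes required. Of 12874 tested genes, 163 (1.27%) did not overlap between genotypes. Sav1 had a log2 fold change of -1.38 (SE 0.184, edgeR adjusted p = 0.00732). Lynx1, which binds nicotinic receptors (chr15:74747852-74753046), had 32.3 to 71.7 CPM in WT and 14.6 to 23.8 CPM in 3xTg-AD (-1.06, edgeR adjusted p = 0.0175), but the call was lost in 6 of 20 alternatives, among them the fit without WT libraries 4 and 12 (-0.98, edgeR adjusted p = 0.0794). The chemokine Ccl27a had 8.25 to 26.1 against 0.558 to 4.37 CPM (-2.65, edgeR adjusted p = 0.00931). It lies at chr4:41769467-41774247, near Gm17167, and has close copies there, so its count is uncertain.

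The 4 genes that rose were Gm47578, its neighbour Gm20110 (chr10:99609171-99658134), the interferon-induced Ifitm2 and Ccdc73. Ccdc73 had 6.32 to 11.2 CPM in WT and 13.6 to 20.6 CPM in 3xTg-AD (log2 fold change 1.03, edgeR adjusted p = 0.0308), a call that was lost in 13 of 20 alternatives, among them the fit without WT libraries 4 and 12 (0.89, edgeR adjusted p = 0.102). Gm20110 had 2 counts in all WT D2 nuclei and 135 in 3xTg-AD, a ratio of 43.8 (95% counting interval 11.9 to 365), and its call was lost in 9 of 20. Tmc4 fell, and Oscar, Pla2g4e, Cnbd2 and Sord, named here after their values were seen, were the other calls. The calls of Cnbd2 and Sord were lost in 15 of 20 alternatives, Pla2g4e in 9 of 20, Tmc4 in 3 of 20, Oscar in 4 of 19, Gm49980 in 11 of 19 and Ifitm2 in 10 of 18. The direction was not particular to the gated nuclei for Bet1, which over all retained nuclei had 32.4 to 54.5 CPM in WT and 12.9 to 17.5 CPM in 3xTg-AD.

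**Figure D5:**
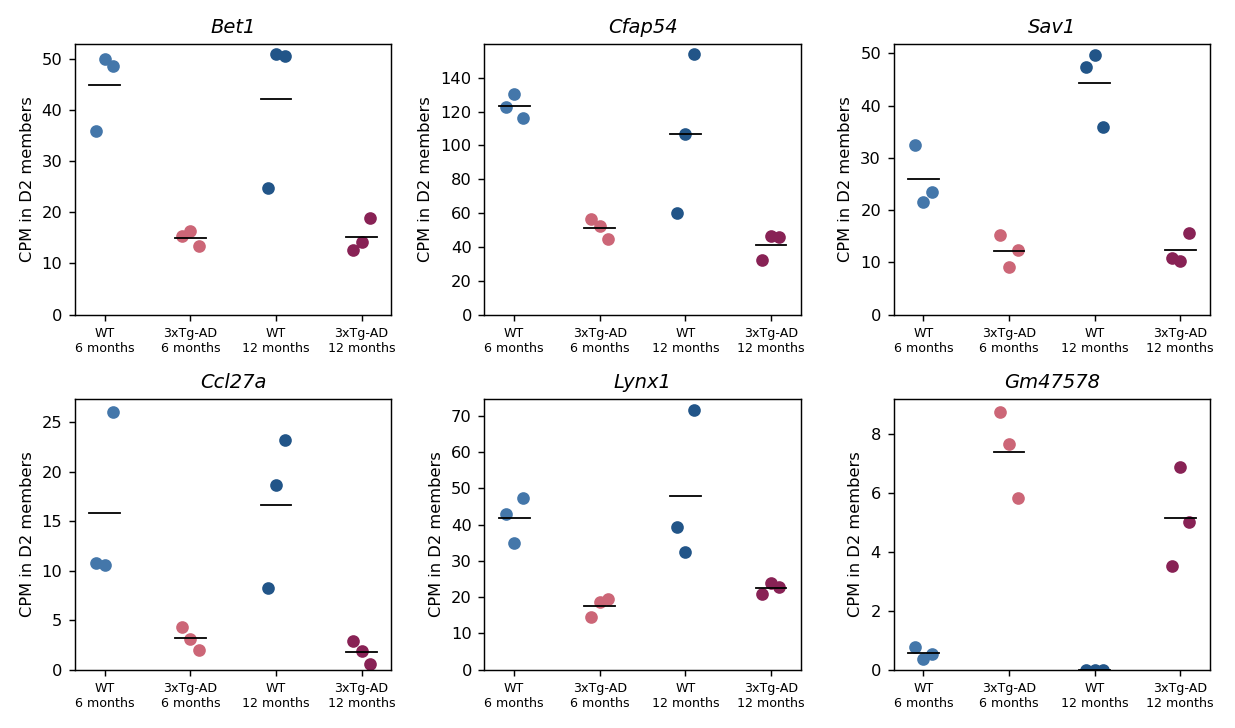
Levels (CPM) of 6 genes called over both ages in the D2 nuclei of each library, with group means as lines. The Sav1 libraries run from 21.6 to 49.7 CPM in WT and from 9.03 to 15.6 CPM in 3xTg-AD.

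Whether the genotype difference was particular to D2 nuclei was tested as an interaction with cell kind, with the library as a block. No gene of 12500 was called (0.0%) by edgeR or by DESeq2, and 503 and 365 genes had an unadjusted p under 0.05. Gm17167 had an interaction of 0.40 on the log2 scale (SE 0.834) and Col5a2 -0.49 (SE 0.574), so neither difference between the kinds was larger than its error, which does not show that the kinds changed alike.

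At 12 months, 1316 of 10507 genes (12.5%) were called, 583 higher and 733 lower in 3xTg-AD. Among them were 8 of 11 tested identity genes, all higher, including Ppp1r1b (2.06, 26.1 and 2.11 CPM in WT against 66.9, 54.2 and 40.2 CPM), and 4 of 7 indirect pathway genes, Penk, Gpr6, Sp9 and Adk. Of 15 genes of dopamine, adenosine and cAMP signalling 10 were higher, among them Gnal, Gng7 and Adcy5, and of 7 metabotropic glutamate receptor genes Grm3, Grm4, Grm5 and Grm7 were higher and Grm8 lower. Median log2 fold changes were 1.92 for the identity genes and 1.64 for the cAMP genes, against -0.02 over all genes. Of the markers of other neurons or regions, Prox1, Sst, Prkcd and Tcf7l2 were called lower and Lamp5 higher. No marker of oligodendrocytes, their precursors, astrocytes or microglia was called. The identity genes are also those on which WT libraries 4 and 12 stood apart, and 2 of the called genes, Drd2 and Pde10a, belong to the gate and are not counted as results.

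Genes lower in 3xTg-AD at 12 months included some that led the nuclei below the identity value, Kcnmb2 and 6330411D24Rik among them. Kcnmb2 had 309, 164 and 203 CPM in WT and 19.9, 13.6 and 37.9 CPM in 3xTg-AD (log2 fold change -3.19, SE 0.353, edgeR adjusted p = 0.0145). Tmem178, Mkx and Rasgrf2, which were not among those leading genes, were lower too. Genes with a small adjusted p in the other direction included Filip1 and the ephrin Efnb2. Filip1 had 22.7, 31.1 and 27.4 CPM in WT and 124, 139 and 78.1 CPM in 3xTg-AD (2.25, SE 0.294, edgeR adjusted p = 0.0145), while at 6 months it had 83.8 to 99.7 CPM in WT and 98.9 to 122 CPM in 3xTg-AD.

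The 12-month calls depended on several settings, and the cause was not tested. With the percent of members above the identity value as a covariate, a choice made after the data were seen, no gene was called at 12 months by edgeR, with 444 at an unadjusted p under 0.05 against 3057 without it, and Penk had a log2 fold change of -0.65 in place of 2.08. Of the 94 called genes reported by the lists or the rule, 37 turned direction with it, Penk, Sp9 and Adk among them. For 4 of the 37, Ppp1r1b, Foxp1, Bcl11b and Meis2, their own levels enter the covariate. The covariate lay at 7.14% to 52.9% in WT and 73.6% to 93.9% in 3xTg-AD at 12 months, without overlap, so none of these turns tells makeup from genotype. A gate with at least 5 Pde10a and 2 Rgs9 UMIs left 209 calls, 200 of them shared, and Penk, Gpr6, Sp9 and Adk were not among them. Leaving out WT library 4 or 12, or 3xTg-AD library 2 or 6, left 0 in edgeR, with 2064 to 2887 at an unadjusted p under 0.05. Genotype and member makeup cannot be told apart at 12 months. Other genes had large log2 fold changes with the covariate too, though none was called. Gm17167 had -6.04 without it and -6.47 with it (edgeR adjusted p = 0.00914 and 0.623), Tmem178 -2.68 and -2.82 (edgeR adjusted p = 0.0145 and 0.994), and 6330411D24Rik -2.93 and -2.30 (edgeR adjusted p = 0.00914 and 0.938).

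The genotype difference was tested for a change between ages in the same way. Of 12874 genes 363 (2.82%) had an interaction, 208 positive and 155 negative, and with the identity covariate 0 had, with 683 at an unadjusted edgeR p under 0.05. Col5a2, at -4.43 at 6 months, had an interaction of 1.56 (SE 0.723, edgeR adjusted p = 0.219).

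Between 12 and 6 months, with genotype in the model, 2 of 12874 genes (0.0155%) were called, both lower at 12 months and overlapping each other on opposite strands. A830036E02Rik (chr11:99416956-99425497), annotated as antisense, had 26.7, 45.9 and 48.3 CPM in 6-month WT and 28.4, 28.8 and 30.4 CPM in 6-month 3xTg-AD, and 0, 1.24 and 1.05 CPM in 12-month WT and 0, 0 and 0 CPM in 12-month 3xTg-AD. In D2 nuclei no 12-month library came near a 6-month library, with 804 counts against 2. The ratio was 309 (95% counting interval 85.2 to 2555, edgeR adjusted p = 2.69e-06). Over all retained nuclei, 12-month WT library 12 lay within the range of the 6-month libraries. Of the 70 D2 nuclei of that library, 7 were above the identity value. Krt12, a keratin of the corneal epithelium (chr11:99415666-99422259), had 153 counts against 3, a ratio of 39.2 (13.2 to 192; edgeR adjusted p = 0.00625). Use of strand in the counting is not stated in the sources used here, so reads of this pair may not be told apart.

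D1 nuclei had 16.1 to 38.5 CPM of A830036E02Rik at 6 months and 0 CPM in all 6 libraries at 12 months, where WT libraries 4 and 12 held only 12 and 21 D1 nuclei. Leaving out WT libraries 4 and 12 kept both calls, and in 3xTg-AD libraries alone A830036E02Rik was called and Krt12 was not (edgeR adjusted p = 0.000361 and 0.328). No gene of the 26 lists was called with age. The indirect pathway genes had a median log2 fold change of -0.33 and the immediate-early genes -0.25, against 0.0036 over all genes. Penk had a log2 fold change with age of -0.83 (SE 0.501), and of -0.11 (SE 0.287) without WT libraries 4 and 12.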

How the data were processed

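Per the labels, nuclei of 12 left hippocampi were profiled with 10x Genomics 3′ chemistry and counted with Cell Ranger 6.1.1 against mm10 (GRCm38). The deposited matrices hold the authors' filtered UMI counts per gene and nucleus, before their correction for ambient RNA. The files hold 185643 barcodes, of which 184957 had 500 to 10000 genes. Counts of gated nuclei were summed per library and tested with edgeR 4.0.16 (TMM, filterByExpr, glmQLFTest) in R 4.3.3, and DESeq2 1.42.0 was an alternative. Scripts were tested on simulated data. Calls needed a Benjamini-Hochberg value under 0.05 and a log2 fold change beyond 0.2 in size. Libraries needed at least 10 gated nuclei, and all 12 had them. CPM is relative to 1000000 UMIs of the summed nuclei, and intervals cover counting error only. Shares were compared with exact permutation tests. Each library is 1 mouse, and p-values measure the spread between libraries. Doublets were scored with Scrublet in scanpy 1.11.5 at an expected share of 8% and kept. The variance ratio within libraries was computed from counts of nuclei above the identity value.

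The members and gene lists were chosen with earlier results of these data known. Named genes are those of the lists, plus up to 8 called genes per direction and comparison with the smallest adjusted p and no overlap between groups, plus the 10 genes per side with the largest median ratio of D2 over D1 nuclei, at 20 CPM or more. Alternatives were RLE size factors, DESeq2, no filter on low counts, at least 30 nuclei per library, thinning to 3000 UMIs (shallower nuclei left out), no doublets, a stricter gate, a single fit of all libraries and each library left out. The identity covariate, the fits without WT libraries 4 and 12, those on 3xTg-AD alone and those above the identity value were added after the data were seen. Gene positions are from the GENCODE annotation of GRCm38. Some items that the rule would name are not reported here and are left out of the counts of reported genes.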

Additional observations from a re-analysis of the deposited data

Results flagged for a closer look

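In the D2 nuclei, 363 genes had a genotype difference that differed between ages, by edgeR's interaction of genotype and age at an adjusted p under 0.05. The values below are interactions on the log2 scale, the 12-month minus the 6-month difference of 3xTg-AD and WT. Among striatal signalling and identity genes they were 3.22 for Gpr6, 2.85 for Chrm1, 2.76 for Kremen1, 2.71 for Gng7, 2.41 for Rxrg, 2.16 for Grm4, 2.15 for Ptk2b, 1.85 for Meis2, 1.79 for Wfs1, 1.77 for Gnal and 1.51 for Arpp21. Among channels and receptors they were 1.89 for Kcna4, 1.01 for Gabrg3, -2.13 for Grin2d and -2.67 for Kcnj6. For genes named at 12 months they were 2.42 for 4933424G05Rik, 2.06 for Filip1, 1.84 for Efnb2, 1.33 for Gm1604a, -1.55 for 4930447C04Rik, -1.68 for Rasgrf2, -2.11 for Mkx, -2.48 for A530058N18Rik and -3.12 for Kcnmb2. Prox1, a marker of other neurons, had -3.02, and AC149090.1 had 2.90.

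In the 12-month WT libraries 7.14% to 52.9% of D2 nuclei lay above the identity value, against 69.7% to 94.5% in the other libraries. With that percent as a covariate edgeR called 0 genes, with 683 at an unadjusted p under 0.05, and with the stricter gate 6 genes were called. Leaving out 3xTg-AD library 1, 2, 5 or 6 or WT library 7, 11 or 12 also left 0 in edgeR, with 2300 to 2564 at an unadjusted p under 0.05. Without 3xTg-AD library 9 or WT library 4 the count was 44 or 10, and without WT library 3 or 8 or 3xTg-AD library 10 it was 1426, 1020 or 1629. Genotype at 12 months and member makeup cannot be told apart. Over all retained nuclei AC149090.1 had 196, 173 and 129 CPM in 6-month and 468, 472 and 750 CPM in 12-month 3xTg-AD, against 617, 795 and 917 CPM and 683, 225 and 534 CPM in WT.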

How the results depend on the processing

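No paired analysis was possible because the replicate numbers run from 1 to 12 and no number occurs in more than 1 group. Precision is limited by 42 to 922 D2 nuclei per library and 3 libraries per group. Calls of 6-month genotype numbered 24 with DESeq2, 147 with no filter on low counts, 13 in 1 fit of all libraries and 36 with the identity covariate, against 8, and 2 to 35 with a library left out (2 without 3xTg-AD library 5 or 9 or WT library 7, 3 without 3xTg-AD library 1, 12 without WT library 11 and 35 without WT library 3). At 12 months they numbered 2607 with no filter, 209 with the stricter gate, 2088 in 1 fit and 0 with the covariate, against 1316, and 0 to 2382 with a library left out (2382 without 3xTg-AD library 10). Over both ages they numbered 113 with DESeq2, 49 with no filter, 56 with the covariate and 9 without WT libraries 4 and 12, against 17, and 6 to 18 with a library left out (6 without 3xTg-AD library 9, 9 without 3xTg-AD library 1 or 5, 11 without WT library 3 or 3xTg-AD library 6). For age, DESeq2 called 5 against 2. For the interaction of genotype and age, DESeq2 called 879, no filter 1868, the stricter gate 6 and the covariate 0, against 363, and 0 to 1629 were called with a library left out. For the interaction of genotype with cell kind, no filter gave 58 against 0. The difference in the D2 percent of D1 and D2 nuclei was -2.74 points above the identity value without WT libraries 4 and 12, -5.52 after thinning to 3000 UMIs, and -16.0 to -12.1 with a library left out, against -13.5. The share difference was -2.06 to -0.00616 points at 6 months and 2.09 to 4.06 at 12 months with a library left out. RLE size factors and removal of doublets kept every count within 1.5 times. At least 30 nuclei per library left out no library from the fits of D2 nuclei alone, so it repeated them and is no separate check. It is still counted among the alternatives given for each gene. In the interaction of genotype with cell kind it left out WT libraries 4 and 12, with 12 and 21 D1 nuclei. The cause of these moves was not tested, except that the filter sets how many genes are tested and leaving out a library lowers the number of samples. Gm17167, Col5a2, Bet1, Cfap54, Sav1 and Gm47578 stayed called over both ages under all 20 alternatives, A830036E02Rik with age under all 21 and Krt12 under 20 of 21. The identity covariate turned the direction of 37 of 94 named 12-month genes and of 0 named genes of the other comparisons, and no other alternative turned any. With it the log2 fold changes of genes higher in 3xTg-AD without it became -0.72 for Adcy5, -0.34 for Adk, -0.33 for Bcl11b, -0.019 for Cacna1c, -0.072 for Chrm1, -0.34 for Foxp1, -0.33 for Gabra4, -0.98 for Gabrd, -0.037 for Gda, -0.64 for Gm10754, -0.43 for Gnb5, -0.073 for Gng7, -0.27 for Grm3, -0.15 for Homer1, -0.56 for Htr2a, -0.15 for Kcna4, -0.43 for Kcnab1, -0.47 for Kcnj4, -1.10 for Lpl, -0.088 for Meis2, -0.30 for Oprd1, -0.81 for Pde1b, -0.15 for Pde2a, -0.65 for Penk, -0.32 for Phactr1, -0.48 for Ppp1r1b, -0.90 for Scn4b, -0.38 for Sp9 and -0.15 for Sv2b. Those of genes lower without it became 0.29 for Chrm3, 0.022 for Grik1, 0.066 for Kcnj6, 0.85 for Pla2g4e, 0.32 for Prox1, 0.32 for Sst, 0.29 for Tcf7l2 and 0.032 for Vwc2.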

Other observations

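A830036E02Rik was low in D2 nuclei of every 12-month library, but over all retained nuclei WT library 12 had 10.98 CPM at 12 months against 0.0831 to 0.215 CPM in the other 5 libraries of that age and 7.25 to 17.3 CPM in the 6-month libraries. Its D2 nuclei had 1.05 CPM, which is 1 count.

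Chat, which makes acetylcholine, had 57.2 CPM in the D2 nuclei of 12-month WT library 8 and 40.7 CPM in those of 12-month 3xTg-AD library 10, against 4.25 to 15.8 CPM in the other 10 libraries. At least 2 UMIs of Chat and Slc5a7 together were found in 4.60% and 3.63% of the D2 nuclei of these libraries, against 0.474% to 2.38% elsewhere. Age gave a log2 fold change of 1.55 for Chat, which was not called by edgeR's quasi-likelihood test.

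Among nuclei above the identity value the genes that varied most within libraries, besides Malat1, were Kcnip4, Nrg3, Adarb2 and Lingo2, whose variance was 19.97, 19.6, 19.1 and 18.2 times that of counting alone. Adarb2 and Lingo2 had UMIs in 14.1% and 29.9% of these nuclei and also led the nuclei below the value. This ranking did not match genes by level, with Kcnip4 at 7002 CPM and Adarb2 at 121 CPM.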
